A study of Mus musculus with 9 samples.

Results

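The CXC chemokines measured here were those whose symbol, or older symbol, in the deposited probe tables was Cxcl1, Cxcl2, Cxcl4, Cxcl5, Cxcl9, Cxcl10, Cxcl12, Cxcl13, Cxcl14 or Cxcl16. Of these 10 genes, 9 had a probe, out of 30869 gene symbols on the arrays, and Cxcl5 had none. Cxcl4 is the name the arrays give to Pf4 (platelet factor 4). The 9 genes were carried by 17 probes, of which 15 were detected and 2, both for Cxcl12, were detected on no array. The genes were chosen for their pattern over these same arrays, so their levels and differences are given as a description and carry no test.

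Transcripts were measured on Illumina MouseWG-6 bead arrays in 9 samples of activated hepatic stellate cells (aHSCs), the scar-forming mesenchymal cells of the injured liver. All are labelled as coming from male C57/Bl6 mice of the genotype WT1GFP/+ (the methods name both sexes for culture work in general), in which 1 copy of the WT1 locus carries green fluorescent protein (GFP), so every group, the WT1-negative cells included, had the reporter allele. WT1-high aHSCs (labelled GFP high, replicates 1, 8 and 29) and WT1-intermediate aHSCs (labelled GFP low, replicates 1, 8 and 30) were sorted by flow cytometry directly from livers with chronic carbon tetrachloride injury, after density centrifugation. WT1-negative aHSCs (labelled GFP negative, replicates 3, 11 and 14) were quiescent stellate cells of uninjured WT1GFP/+ mice that had been activated for 7 days on culture plastic before the sort. WT1 status therefore coincided with origin, liver or culture, in every comparison with WT1-negative aHSCs, and the contributions of WT1, of injury and of culture cannot be told apart there. A GFP-negative population sorted from injured liver was not analysed here.

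CXC chemokines are small secreted proteins that guide leukocytes through G protein-coupled receptors. Those with a glutamate-leucine-arginine motif, such as Cxcl1, Cxcl2 and Cxcl5, act through Cxcr2 on neutrophils and are classical targets of NF-kappaB. Cxcl9 and Cxcl10 are induced by interferon and attract T and NK cells through Cxcr3. Cxcl16 is a transmembrane ligand of Cxcr6, Cxcl13 guides B cells through Cxcr5, and Cxcl12 is a stromal ligand of Cxcr4 that is also bound by the atypical receptor Ackr3. Cxcl4 is stored in platelet granules, and Cxcl14 is a homeostatic chemokine of epithelia and fibroblasts. In the liver, stellate cells, macrophages, endothelium and bile duct cells can all release such ligands.

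Cxcl1, Cxcl2, Cxcl4, Cxcl5, Cxcl9, Cxcl10 and Cxcl13 lie on chromosome 5, where Cxcl5 is followed by Ppbp (Cxcl7), Pf4 and Cxcl3, and where Cxcl1 and Cxcl2 are direct neighbours. Cxcl12 lies on chromosome 6, Cxcl16 on chromosome 11 and Cxcl14 on chromosome 13. RefSeq promoters on GRCm38.p6, reaching from 250 bases before to 50 bases after the start, were found for 8 of the 10 genes, with none for Cxcl5 and Cxcl16. Both strands were searched for the NF-kappaB consensus, for 2 GAAA runs parted by 2 free bases (as in interferon-stimulated response elements, ISRE), for TTCNNNGAA (as in gamma-activated sites) and for TATAAA. Over all 32851 promoters of this length, the shares holding them were 8.46%, 3.44%, 8.3% and 13.6%. The promoters of 3 ligands that were higher in both liver populations than in culture on their brightest probe (Cxcl2 on that probe alone) are shown. That of Cxcl14, which was lowest in WT1-high aHSCs, is added. Capitals mark matches to any of the first 3 motifs, and each sequence is written in the direction of its gene.
Cxcl1 promoter (chr5:90890995-90891294, plus strand): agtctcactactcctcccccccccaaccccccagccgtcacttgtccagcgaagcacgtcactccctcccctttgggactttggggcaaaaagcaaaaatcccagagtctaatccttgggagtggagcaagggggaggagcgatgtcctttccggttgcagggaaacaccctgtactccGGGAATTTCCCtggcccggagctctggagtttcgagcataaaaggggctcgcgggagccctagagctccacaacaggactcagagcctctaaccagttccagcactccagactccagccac
Cxcl2 promoter (chr5:90903649-90903948, plus strand): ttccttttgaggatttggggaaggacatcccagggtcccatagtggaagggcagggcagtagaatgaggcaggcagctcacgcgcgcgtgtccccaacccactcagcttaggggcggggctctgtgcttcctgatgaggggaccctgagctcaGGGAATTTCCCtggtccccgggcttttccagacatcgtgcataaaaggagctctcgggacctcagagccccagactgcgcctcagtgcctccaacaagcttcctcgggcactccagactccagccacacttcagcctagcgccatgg
Cxcl10 promoter (chr5:92348840-92349139, minus strand): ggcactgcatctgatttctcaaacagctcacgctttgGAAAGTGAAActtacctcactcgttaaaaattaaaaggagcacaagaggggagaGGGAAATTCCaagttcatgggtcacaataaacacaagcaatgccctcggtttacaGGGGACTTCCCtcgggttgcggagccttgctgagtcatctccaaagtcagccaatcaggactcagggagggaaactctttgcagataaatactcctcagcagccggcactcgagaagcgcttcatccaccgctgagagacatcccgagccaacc
Cxcl14 promoter (chr13:56296502-56296801, minus strand): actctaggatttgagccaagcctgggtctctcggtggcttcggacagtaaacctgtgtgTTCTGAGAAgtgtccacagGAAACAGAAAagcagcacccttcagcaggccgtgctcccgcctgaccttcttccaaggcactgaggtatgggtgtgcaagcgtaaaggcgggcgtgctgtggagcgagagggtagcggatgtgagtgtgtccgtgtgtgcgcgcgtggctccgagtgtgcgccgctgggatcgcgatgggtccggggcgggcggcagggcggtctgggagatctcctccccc

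The NF-kappaB consensus was matched in 3 of the 8 promoters, those of Cxcl1, Cxcl2 and Cxcl10. The neighbours Cxcl1 and Cxcl2 held the same letters GGGAATTTCCC, from base -71 in Cxcl1 and from base -97 in Cxcl2, where matches on the 2 strands overlap by all but 1 base. Cxcl10 had matches from bases -159, -104 and -103, the last 2 overlapping, and an ISRE-like match from base -213. Cxcl14 held an ISRE-like match from base -172 and a TTCNNNGAA match from base -191. TATAAA was found in the promoters of Cxcl9, from base -195, and Cxcl13, from base -46. None of the 4 motifs was matched in the windows of Cxcl4 and Cxcl12.

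Expression is given as a log2 level, which is the background-corrected and quantile-normalized intensity of a probe, and the level of different probes is not compared. A gene with several probes is given first by its brightest. Differences are log2 differences of group means with the SE of the linear model, which is the same for all 3 comparisons of a probe, and SD is over the 3 arrays of a group. Between 38.1% and 43.7% of all gene probes were detected per array, and median negative control intensities lay between 76.3 and 93.6. Between 20 and 67 beads (median 39) lay behind each intensity of the CXC chemokine probes. In RNA from sorted populations, fewer cells of a type and less RNA per cell cannot be told apart.

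The neutrophil-attracting ligand Cxcl1 had overlapping levels in the 2 liver populations and was higher there than in culture-activated cells. The probe of Cxcl1 (ILMN_2763245) read 12.89, 12.92 and 13.26 in WT1-high aHSCs, 12.75, 12.89 and 13.46 in WT1-intermediate aHSCs, and 11.64, 11.08 and 11.79 in WT1-negative aHSCs. The ranges of the 2 liver populations lay almost on top of each other, and no culture array reached them. The difference was -0.01 between WT1-high and WT1-intermediate aHSCs, 1.52 (2.87-fold) between WT1-high and WT1-negative aHSCs, and 1.53 (2.89-fold) between WT1-intermediate and WT1-negative aHSCs, each with an SE of 0.23.

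Its neighbour Cxcl2 was read by 2 probes that did not give the same order of groups. The brighter probe of Cxcl2 (ILMN_2778289) read 10.63, 10.58 and 11.02 in WT1-high aHSCs, 11.88, 10.89 and 11.38 in WT1-intermediate aHSCs and 9.39, 9.44 and 9.59 in WT1-negative aHSCs. On this probe all 6 liver arrays stood above the culture arrays, by 1.27 (2.42-fold) for WT1-high and 1.91 (3.76-fold) for WT1-intermediate aHSCs (SE 0.23). The dimmer probe (ILMN_2811154) read 8.61, 8.09 and 8.96, then 9.97, 8.93 and 9.47, then 9.09, 9.86 and 9.55 in the same order of groups and replicates. On that probe WT1-high arrays were all below the culture arrays, by -0.95, whereas WT1-intermediate and culture arrays overlapped, with a difference of -0.04 (SE 0.30). On both probes the WT1-high mean was below the WT1-intermediate mean, by -0.64 and -0.90, with overlapping ranges. The first 30 of the 50 bases of both probes are shown because the direction of Cxcl2 against culture rests on which of them is read.
Cxcl2 ILMN_2778289: ggaaggagtgtgcatgttcacatcattttt
Cxcl2 ILMN_2811154: caagggcggtcaaaaagtttgccttgaccc

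The arrays annotate the first of these probes only with the unversioned accession of the Cxcl2 transcript and the second with a versioned one, and which of them tracks the Cxcl2 transcript better was not tested.

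The interferon-inducible ligands Cxcl9 and Cxcl10, which share the receptor Cxcr3, were both higher in the liver populations than in culture. Cxcl9 (ILMN_1215862) read 5.86, 6.86 and 7.38 in WT1-high aHSCs, 7.33, 8.01 and 7.87 in WT1-intermediate aHSCs and 4.36, 4.50 and 5.24 in WT1-negative aHSCs. Detection of Cxcl9 was complete in the liver arrays but was reached on only 1 of the 3 culture arrays. The liver and culture ranges of Cxcl9 did not overlap, with differences of 2.00 (4.00-fold) for WT1-high and 3.03 (8.19-fold) for WT1-intermediate aHSCs (SE 0.36). With 2 of the 3 culture arrays at background, the differences were 0.88 and 1.56 without background correction and 1.21 and 2.03 with an offset of 50. WT1-intermediate aHSCs had the higher mean of the 2 liver populations, by 1.03, but WT1-high replicate 29 lay just above WT1-intermediate replicate 1, so those groups overlapped. Paired by replicate number, with 29 set against 30 by its column number, Cxcl9 and both Cxcl2 probes were lower in WT1-high aHSCs each time. Both Cxcl16 probes and the brightest Cxcl12 probe were higher there each time. The dimmer detected Cxcl12 probes (ILMN_3158250 and ILMN_2737302) were lower there for replicates 1 and 29 and higher for replicate 8. The share of all probes with the same sign in every pair was not computed.

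Cxcl10 did not share the step of Cxcl9 between the liver populations. The brighter probe of Cxcl10 (ILMN_3142803) read 8.30, 8.77 and 8.70 in WT1-high aHSCs, 8.12, 8.90 and 8.74 in WT1-intermediate aHSCs and 5.94, 6.07 and 6.54 in WT1-negative aHSCs. Its difference between the liver populations was 0.00, against 2.41 (5.31-fold) and 2.40 (5.29-fold) over culture (SE 0.24), or 1.66 each without background correction. The other probe (ILMN_1214419) was detected on every liver array, between 7.54 and 8.42, and on no culture array, which makes it higher by at least 10.4-fold in WT1-high aHSCs and by at least 10.7-fold in WT1-intermediate aHSCs. A bound of this kind sets the bright group against the lowest detected signal of each array of the dim group.

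Cxcl16, the membrane-bound ligand of Cxcr6, was higher in both liver populations than in culture. The brighter probe of Cxcl16 (ILMN_2687586) read 10.19, 10.22 and 10.69 in WT1-high aHSCs, 10.02, 10.09 and 10.49 in WT1-intermediate aHSCs and 9.15, 9.49 and 9.48 in WT1-negative aHSCs. All liver arrays were above all culture arrays, by 0.99 (1.99-fold) and 0.83 (1.77-fold), and the liver populations overlapped with a difference of 0.16 (SE 0.19). A dimmer second probe (ILMN_1254723) gave 1.30, 0.92 and 0.38 for the same 3 differences (SE 0.26), with the same overlaps.

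Cxcl13, the B cell attractant of lymphoid stroma, showed the widest gap between liver and culture among the 9 genes. It read 9.51, 11.27 and 9.29 in WT1-high and 9.38, 9.41 and 9.74 in WT1-intermediate aHSCs, and was detected on no culture array (4.26, 4.20 and 4.29). Cxcl13 was thus higher by at least 42.7-fold in WT1-high aHSCs and by at least 30.0-fold in WT1-intermediate aHSCs than in WT1-negative aHSCs, where the level is only a bound. Without WT1-high replicate 8 the first bound was 27.8-fold, and without background correction the bounds were 11.8-fold and 8.41-fold. The liver populations differed by 0.51 (SE 0.40) and overlapped. That difference rested on WT1-high replicate 8, whose Cxcl13 level was far above the other 5 liver arrays, and was -0.11 without it.

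**Figure D1:**
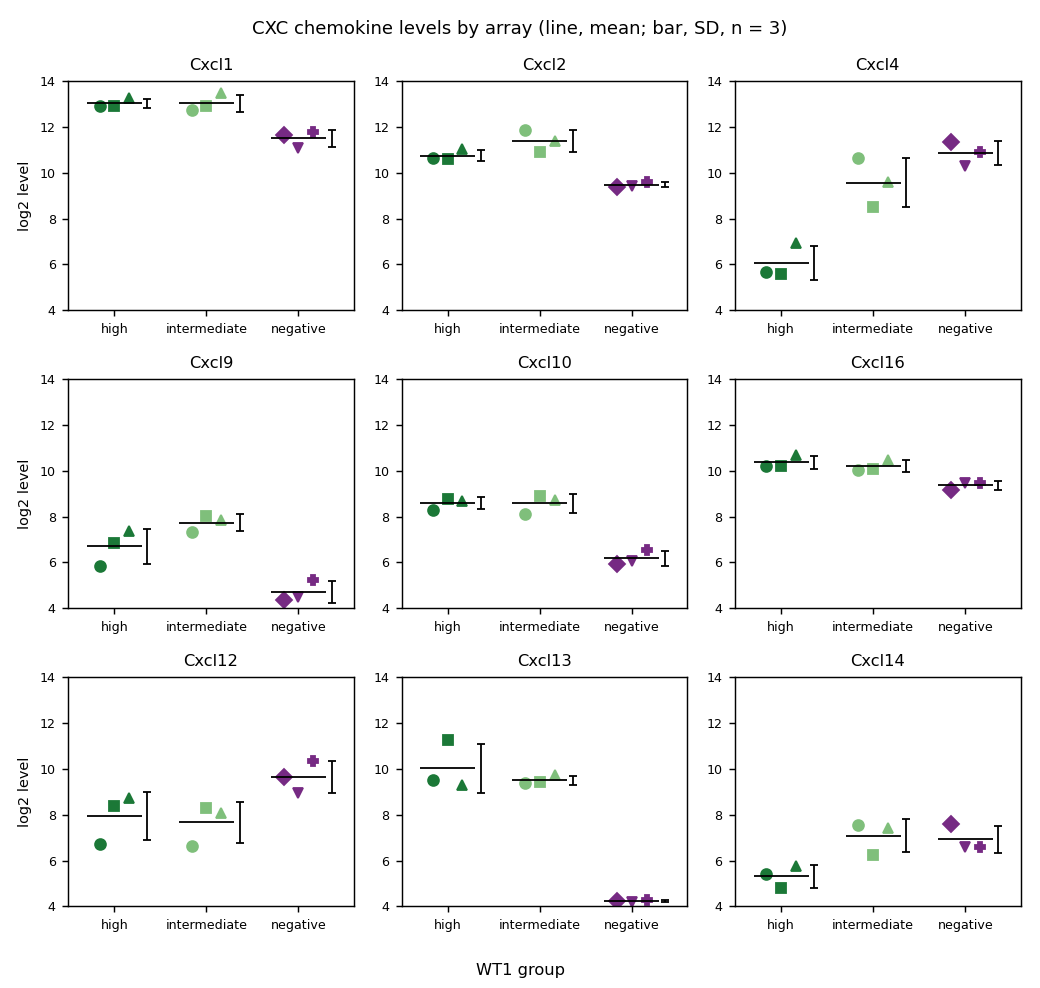
Log2 levels of the 9 CXC chemokine genes (brightest probe of each) on the 9 arrays, by WT1 group. Circles are replicate 1, squares replicate 8 and upright triangles replicates 29 and 30 of the liver groups, with diamonds, inverted triangles and crosses for culture replicates 3, 11 and 14. Lines are means and bars SD. Cxcl4 and Cxcl14 of WT1-high aHSCs lie below both other groups, Cxcl12 is highest in culture, and the other 6 genes are lowest in culture, Cxcl13 at background.

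Cxcl12 had the opposite course, with its highest levels in culture. Its brightest probe (ILMN_2658908) read 6.74, 8.39 and 8.72 in WT1-high aHSCs, 6.65, 8.29 and 8.10 in WT1-intermediate aHSCs and 9.65, 8.97 and 10.34 in WT1-negative aHSCs. Every culture array was above every liver array, although WT1-high replicate 29 and WT1-negative replicate 11 came within 0.25 of each other. Replicate 1 was the lowest array of Cxcl12 in both liver populations.

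The liver populations differed by 0.27 on the brightest Cxcl12 probe, within an SE of 0.55. On the dimmer detected probes they differed by -0.12 (ILMN_3158250) and -0.24 (ILMN_2737302). Against culture, the brightest probe differed by -1.70 (3.26-fold lower) in WT1-high and by -1.98 (3.93-fold lower) in WT1-intermediate aHSCs. Without WT1-high replicate 1 the first of these was -1.10. The probe assigned to transcript variant 3 (ILMN_3158250) gave -1.40 and -1.28 with no overlap, whereas that of variant 1 (ILMN_2737302) gave -0.83 and -0.59 with overlapping groups (SE 0.43 and 0.49). The other probe of each variant was detected on no array, so the arrays do not settle whether the variants differed.

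Cxcl4 and Cxcl14 were the 2 genes without overlap between WT1-high and WT1-intermediate aHSCs, where 20.1% of all probes did not overlap. Cxcl4 (ILMN_2757966) read 5.65, 5.60 and 6.93 in WT1-high aHSCs, 10.63, 8.50 and 9.58 in WT1-intermediate aHSCs and 11.34, 10.31 and 10.89 in WT1-negative aHSCs, and was detected on all 9 arrays. The brightest WT1-high array was below the dimmest array of either other group. WT1-intermediate and culture arrays overlapped, since WT1-intermediate replicate 1 exceeded WT1-negative replicate 11.

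In log2 units the difference of Cxcl4 was -3.51 between WT1-high and WT1-intermediate aHSCs (11.4-fold lower), -4.79 between WT1-high and WT1-negative aHSCs (27.7-fold lower) and -1.28 between WT1-intermediate and WT1-negative aHSCs (2.43-fold lower), with an SE of 0.50. Without background correction the first and second were -2.58 and -3.77. The last moved between -1.81, without WT1-intermediate replicate 1, and -0.74, without WT1-intermediate replicate 8.

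Cxcl14 was likewise lowest in WT1-high aHSCs but overlapped between WT1-intermediate aHSCs and culture. Its brighter probe (ILMN_2659426) read 5.41, 4.79 and 5.78 in WT1-high aHSCs, 7.57, 6.26 and 7.43 in WT1-intermediate aHSCs and 7.61, 6.58 and 6.59 in WT1-negative aHSCs. The other probe (ILMN_2760800) read 5.51, 5.83 and 6.00, then 6.75, 6.61 and 6.43, then 7.23, 6.86 and 6.31. On both probes of Cxcl14 all WT1-high arrays were below all arrays of the other groups, which overlapped each other.

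The brighter Cxcl14 probe gave differences of -1.76 (3.38-fold lower) against WT1-intermediate aHSCs and -1.60 (3.03-fold lower) against culture, with 0.16 between the last 2 groups (SE 0.39). Without background correction the first and second were -0.91 and -0.80. The other probe gave -0.82, -1.02 and -0.20 (SE 0.23), a smaller step below WT1-intermediate aHSCs.

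Over the 9 genes, 2 (Cxcl4 and Cxcl14) passed an adjusted p under 0.05 (limma, Benjamini-Hochberg over all probes) between the liver populations, both lower in WT1-high aHSCs, where 3.55% of all 20573 probes passed, 2.64% lower and 0.904% higher. Cxcl4 passed under all 20 other settings tried, Cxcl14 under 11. The dimmer Cxcl14 probe did not pass between the liver populations. The study also lists Cxcl2 and Cxcl9 as higher in WT1-intermediate aHSCs (1.87-fold and 2.05-fold), and neither passed in the model used here. For Cxcl2 the listed value equals that of the dimmer probe here (1.87-fold). The brightest probe gave 1.55-fold, and neither Cxcl2 probe passed. With replicate number as a random block, Cxcl9 also passed, lower in WT1-high aHSCs, and the count over all probes went from 730 to 1752. Against culture, 6 genes passed higher and 3 lower in WT1-high aHSCs, where 59.6% of all probes passed, 26.5% higher and 33.1% lower. In WT1-intermediate aHSCs 6 genes passed higher and 2 lower against culture, where 58% of all probes passed, 24.4% higher and 33.6% lower. Groups without overlap, read on the brightest probe, were found for 2 genes between the liver populations, both lower in WT1-high aHSCs, where 20.1% of all probes did not overlap, 11.5% higher and 8.6% lower. Between WT1-high aHSCs and culture 6 genes lay entirely higher and 3 entirely lower, beside 68.4% of all probes, 30.7% higher and 37.7% lower. Between WT1-intermediate aHSCs and culture the counts were 6 and 1, beside 65.5% of all probes, 28% higher and 37.5% lower. Because the genes were chosen on these values, nothing is read from these counts.

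The median difference of the 9 genes was -0.01 between the liver populations, 1.27 between WT1-high and WT1-negative aHSCs and 1.53 between WT1-intermediate and WT1-negative aHSCs, beside 0.05, -0.10 and -0.13 for all probes tested. Both comparisons with culture use the same 3 culture arrays, so their values are set side by side and no overlap between them is given.

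**Figure D2:**
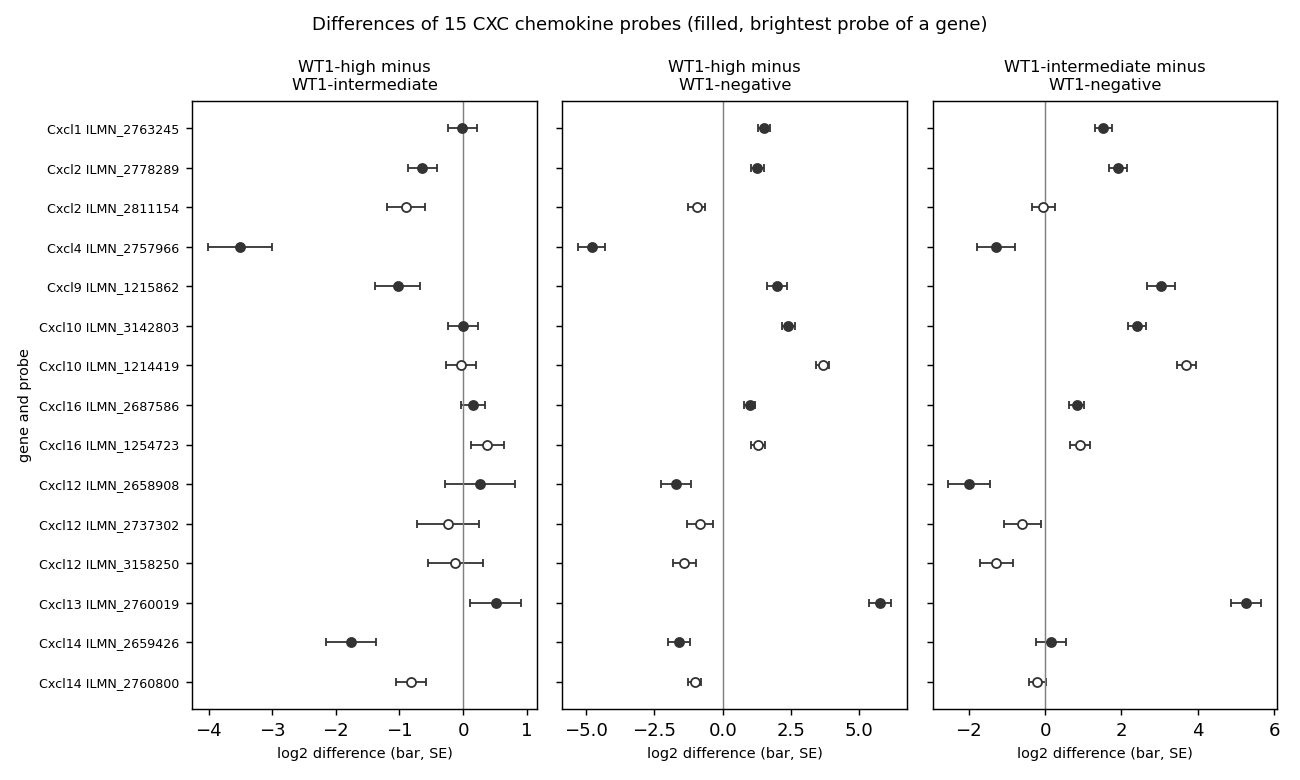
Log2 differences of the 15 detected CXC chemokine probes in the 3 comparisons, with bars for the SE. Filled points are the brightest probe of a gene and open points its other probes. Cxcl4 and Cxcl14 lie furthest left between the liver populations, Cxcl13 furthest right against culture, and the open Cxcl2 point lies on the other side of 0 from the filled one in both comparisons with culture.

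The remaining CXC ligands on the arrays were scarcely seen. Cxcl3, Cxcl11, Cxcl15 and Cxcl17 were detected on no array. Ppbp (Cxcl7), which like Cxcl4 is a platelet granule protein and is its chromosomal neighbour, was detected in culture alone, at least 1.62-fold lower in WT1-high aHSCs (adjusted p 0.00086) and at least 1.6-fold lower in WT1-intermediate aHSCs (adjusted p 0.001; limma, Benjamini-Hochberg).

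The receptors of these ligands are mainly carried by leukocytes, and 7 of 8 were detected (Cxcr1 was not). None of the 7 differed between the liver populations at an adjusted p under 0.05 (limma), where 3.55% of all probes did. Cxcr4, the receptor of Cxcl12, came closest. It read 7.63, 7.10 and 7.50 in WT1-high aHSCs, 8.82, 8.16 and 7.78 in WT1-intermediate aHSCs and 7.32, 7.92 and 7.72 in WT1-negative aHSCs. The liver populations did not overlap in Cxcr4 and differed by -0.84 (adjusted p 0.12, limma, Benjamini-Hochberg), which passed with replicate number as a random block (-0.92, adjusted p 0.022) and with it as a fixed block (-1.12, adjusted p 0.035). Ackr1 and Ackr3 passed, lower in WT1-high aHSCs, where arrays were scaled to a common median instead. Against culture Cxcr4 differed by -0.24 in WT1-high (adjusted p 0.44) and by 0.60 in WT1-intermediate aHSCs (adjusted p 0.07; limma), the latter passing with the fixed block (0.69, adjusted p 0.015).

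Against culture, 4 of the 7 receptors were higher in WT1-high aHSCs and 5 in WT1-intermediate aHSCs, beside 26.5% and 24.4% of all probes. None was lower, but Cxcr2, Cxcr5, Cxcr6, Ackr1 and Ackr3 were detected on no culture array and entered the test through the liver arrays. They could therefore hardly be called lower. With detection required on all 9 arrays, 2 receptors were tested, and 1 (Cxcr3) was higher in each comparison. Cxcr6, the receptor of Cxcl16 on T and NK cells, read 5.46, 5.81 and 6.40 in WT1-high and 5.58, 5.82 and 6.82 in WT1-intermediate aHSCs and was detected on no culture array. It was higher by at least 2.44-fold in WT1-high aHSCs (adjusted p 0.00089) and by at least 2.77-fold in WT1-intermediate aHSCs (adjusted p 0.00046; limma).

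Cxcr3, the receptor of Cxcl9 and Cxcl10, was detected on all arrays and was higher by 0.59 (adjusted p 0.0092) and 0.92 (adjusted p 0.00059, limma). Cxcr5, the receptor of Cxcl13, was higher by at least 1.54-fold in WT1-high aHSCs (adjusted p 0.0023) and by at least 1.33-fold in WT1-intermediate aHSCs (adjusted p 0.011, limma), where 2 of the 3 arrays detected it, with no detection in culture. A second Cxcr5 probe, detected on 2 arrays of each liver population and none of culture, passed in WT1-high aHSCs (at least 1.18-fold, adjusted p 0.031) and not in WT1-intermediate aHSCs (at least 1.05-fold, adjusted p 0.13; limma), and no test of the difference between those comparisons was made. The scavenging receptor Ackr3 was at least 1.18-fold and 1.52-fold higher (adjusted p 0.02 and 0.0015, limma), the first not passing without WT1-high replicate 1 or WT1-negative replicate 3. Ackr1, which binds many chemokines on endothelium and red cells, was higher in WT1-intermediate aHSCs (at least 1.59-fold, adjusted p 0.0022) and was detected on 2 WT1-high arrays (at least 1.09-fold, adjusted p 0.17; limma), with no detection in culture. Cxcr2, detected on 2 arrays of each liver population and none of culture, did not pass (at least 1.2-fold in each, adjusted p 0.063 and 0.065, limma).

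**Figure D3:**
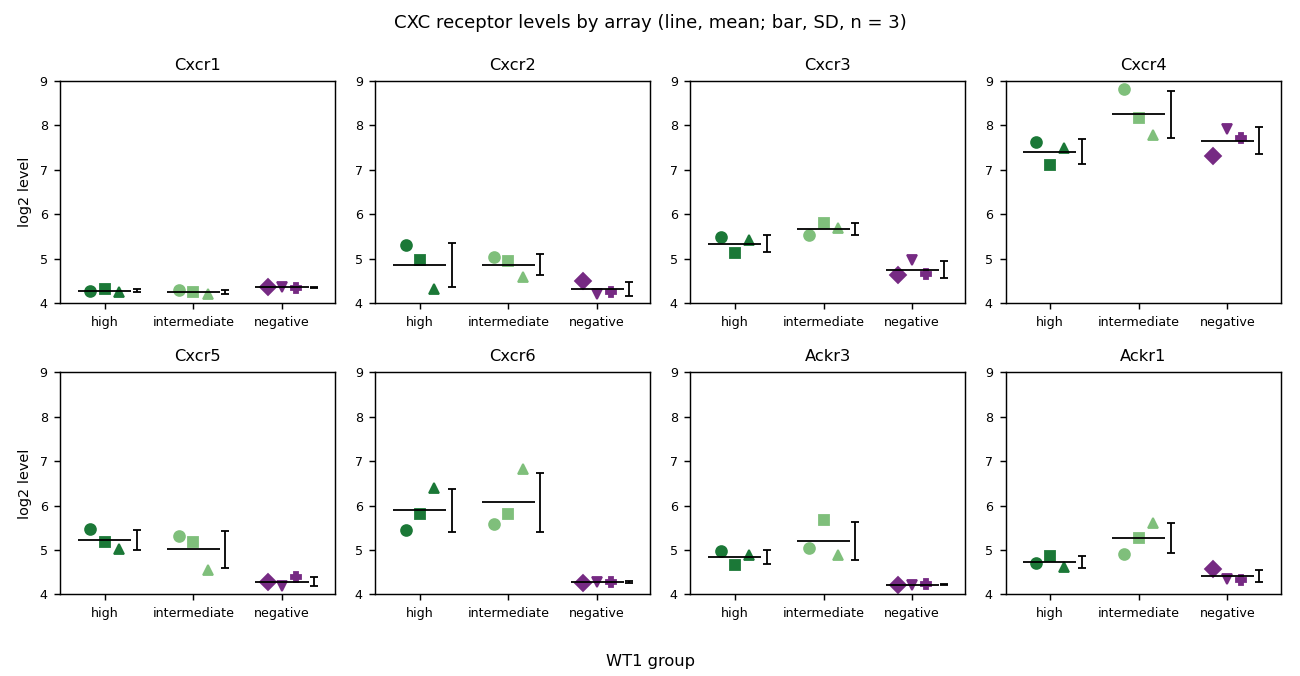
Log2 levels of 8 CXC receptors on the 9 arrays, by WT1 group, with symbols, lines and bars as in the plot of ligand levels. Cxcr2, Cxcr5, Cxcr6, Ackr1 and Ackr3 were detected on no culture array, Cxcr1 on no array at all, and Cxcr4 has its highest array in WT1-intermediate aHSCs.

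Of 20 tested components of chemokine receptor signalling, 6 were lower in WT1-high than in WT1-intermediate aHSCs and none was higher (beside 2.64% and 0.904% of all probes), with a median difference of -0.34. The 6 included Rgs1, a regulator that shortens G protein signalling (-1.82, adjusted p 0.0026), Vav1, an exchange factor of leukocytes (-1.47, 0.012), the G protein subunit Gng2 (-1.38, 0.013) and Elmo1, which links receptors to Rac (-1.01, 0.034; limma, Benjamini-Hochberg). The count was 9 with replicate number as a random block, 3 without WT1-intermediate replicate 8 or without WT1-high replicate 29, 2 (Rgs1 and Vav1) without background correction and 1 (Rgs1) without the detection filter. Against culture, 12 of the 20 fell and 3 rose in WT1-high aHSCs (beside 33.1% and 26.5% of all probes), and 11 fell and 3 rose in WT1-intermediate aHSCs (beside 33.6% and 24.4%), with medians of -1.09 and -0.68, led by Gng2 (-3.50 and -2.12; limma adjusted p 5.7e-07 and 3e-05).

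Of 22 tested genes of NF-kappaB induction, 14 rose and 4 fell in WT1-high aHSCs against culture (beside 26.5% and 33.1% of all probes), and 13 rose and 3 fell in WT1-intermediate aHSCs (beside 24.4% and 33.6%), with medians of 1.20 and 0.99. Tnfaip3 (A20), which NF-kappaB induces and which restrains it, was higher by 3.99 and 3.56 (limma adjusted p 5.3e-09 and 1.6e-08). The cytokine Il6 was higher by 3.47 and 4.26 (adjusted p 7.1e-06 and 1.9e-06), whereas Il1a was lower by -3.43 and -2.42 (adjusted p 4.1e-08 and 7.2e-07, limma). Between the liver populations 1 of the 22 passed, a share near the 3.55% of all probes. This was Il1a, at -1.01 (adjusted p 0.0092, limma), and the median of the 22 was 0.15. Without background correction Il1a did not pass and Tnfaip3 did, higher in WT1-high aHSCs.

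Of 17 tested genes of interferon signalling and response, 10 rose in WT1-high aHSCs and 12 in WT1-intermediate aHSCs against culture (beside 26.5% and 24.4% of all probes), and none fell. Those that rose included the cytokine Ifng, the receptor chain Ifnar2 and the kinase Jak1 along with genes that interferon induces. Gbp2, a guanylate-binding protein, was higher by 3.93 and 3.45 (adjusted p 9.1e-08 and 3.2e-07), and Irf7, a transcription factor of the interferon response, by 2.51 and 2.63 (adjusted p 5.7e-05 and 4.7e-05; limma). Between the liver populations 1 of the 17 passed, beside 3.55% of all probes. This was the receptor chain Ifngr2, lower in WT1-high aHSCs (-1.46, adjusted p 0.0086, limma), which did not pass without the detection filter.

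Of 7 tested genes that accompany Cxcl13 in lymphoid stroma, 3 rose and 1 fell in WT1-high aHSCs against culture, a share near that of all probes (59.6%), and 5 rose and 1 fell in WT1-intermediate aHSCs (58% of all probes). The adhesion molecule Vcam1 was higher by 2.25 and 1.83 (adjusted p 2.7e-05 and 0.00014), and lymphotoxin beta (Ltb) was at least 2.48-fold and 2.79-fold higher (adjusted p 3.3e-06 and 2e-06; limma). Between the liver populations 1 of the 7 passed, beside 3.55% of all probes. This was Ccl19, which attracts T cells and dendritic cells, lower in WT1-high aHSCs (-1.44, adjusted p 0.004, limma). It read 5.08, 4.88 and 5.10 in WT1-high aHSCs and 6.36, 6.39 and 6.63 in WT1-intermediate aHSCs.

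Of 16 tested enzymes and proteoglycans that cut or hold chemokines, 8 rose and 5 fell in WT1-high aHSCs against culture (59.6% of all probes passed), and 7 rose and 3 fell in WT1-intermediate aHSCs, a share near the 58% of all probes. Dpp4, the peptidase that inactivates Cxcl9, Cxcl10 and Cxcl12 by trimming them, was higher by 4.63 and 4.55 (adjusted p 1.5e-08 and 2.4e-08, limma). Mmp9 was lower by -3.50 and -3.08 (adjusted p 6.7e-06 and 2.2e-05), and Mmp2 higher by 2.55 and 3.19 (adjusted p 4.7e-06 and 1.1e-06; limma). Between the liver populations 2 of the 16 passed, beside 3.55% of all probes. The heparan sulphate proteoglycan Sdc3 (-1.84, adjusted p 0.0028) and serglycin (Srgn, -1.35, adjusted p 0.021), the granule proteoglycan that binds Cxcl4, were lower in WT1-high aHSCs (limma). Srgn did not pass without WT1-high replicate 1, 8 or 29, without WT1-intermediate replicate 1 or without the detection filter.

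Markers of other cells moved with several of these genes. All 18 macrophage markers were lower in WT1-high than in WT1-intermediate aHSCs, with a median of -1.89. Of these, 14 passed an adjusted p under 0.05 (limma), beside 2.64% of all probes that were lower. Their summed normalized intensity was 5603 to 8759 in WT1-high aHSCs, 18213 to 29649 in WT1-intermediate aHSCs and 62188 to 67555 in WT1-negative aHSCs. This sum shared its order of groups with Cxcl4, but single markers were mixed against culture. In WT1-intermediate aHSCs 8 passed lower and 4 higher than in culture (beside 33.6% and 24.4% of all probes). In WT1-high aHSCs 13 passed lower and 1 higher (beside 33.1% and 26.5%). The defining marker Emr1 (F4/80) was detected in all groups, whereas Itgam was not detected in WT1-high and Clec4f, a Kupffer cell lectin, not in WT1-negative aHSCs. The part of macrophage RNA in the differences of Cxcl4, Cxcl14 and the receptor signalling genes was not tested.

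The platelet and megakaryocyte list was near background in all groups. Of its 10 measured markers, 7 were undetected in WT1-high aHSCs, 5 in WT1-intermediate aHSCs and 7 in WT1-negative aHSCs, Gp1bb, Gp6 and Tubb1 in all of them. Its summed intensity was 238 to 255, 229 to 256 and 265 to 296 in the same order, highest in culture and overlapping between the liver populations. Of 4 tested markers, none passed between the liver populations, where 3.55% of all probes did. Against culture, 2 were lower and 1 higher in WT1-high aHSCs (beside 33.1% and 26.5% of all probes). In WT1-intermediate aHSCs 2 were lower and 2 higher (beside 33.6% and 24.4%). Ppbp, given above as a CXC ligand, is in this list and is 1 of the 2 lower markers in each comparison. It was detected in culture alone and so entered the test through the culture arrays. Its part in the summed intensity was not tested. The part of platelet RNA in the differences of Cxcl4 was not tested.

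Summed T and NK cell markers were 763 to 1110 in WT1-high aHSCs, 699 to 1202 in WT1-intermediate aHSCs and 230 to 248 in WT1-negative aHSCs, with 8 of 11 undetected in culture, Cd3e, Cd3d and Nkg7 among them. The neutrophil sum was also lower in culture (445 to 741, against 1220 to 2476 and 1905 to 3089), but single markers were mixed. Of 9 tested, 4 passed higher and 1 lower in WT1-high aHSCs against culture (beside 26.5% and 33.1% of all probes). In WT1-intermediate aHSCs 6 passed higher and none lower (beside 24.4% and 33.6%). The sums of the T and NK cell and neutrophil lists moved with Cxcr3, Cxcr5 and Cxcr6, and their part in those differences was not tested. Endothelial markers were 1344 to 1748, 2276 to 2658 and 1467 to 2014.

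For the labelled cell type, 12 hepatic stellate cell markers summed to 3680 to 5730 in WT1-high aHSCs, 2978 to 4342 in WT1-intermediate aHSCs and 1272 to 1610 in WT1-negative aHSCs. Des, Pdgfrb and Reln were among those detected in each group, Gfap, Rgs5 and Vipr1 were detected on no array, and Lrat, the retinoid-storing enzyme of quiescent cells, was not detected in WT1-intermediate and WT1-negative aHSCs. Mesothelial markers, all 10 detected in both liver populations, summed to 34240 to 38288 in WT1-high aHSCs, 19961 to 27266 in WT1-intermediate aHSCs and 382 to 480 in WT1-negative aHSCs, and 3 to 5 of them were detected on each culture array, with Dmkn, Gpm6a, Krt19 and Lrrn4 on none.

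**Figure D4:**
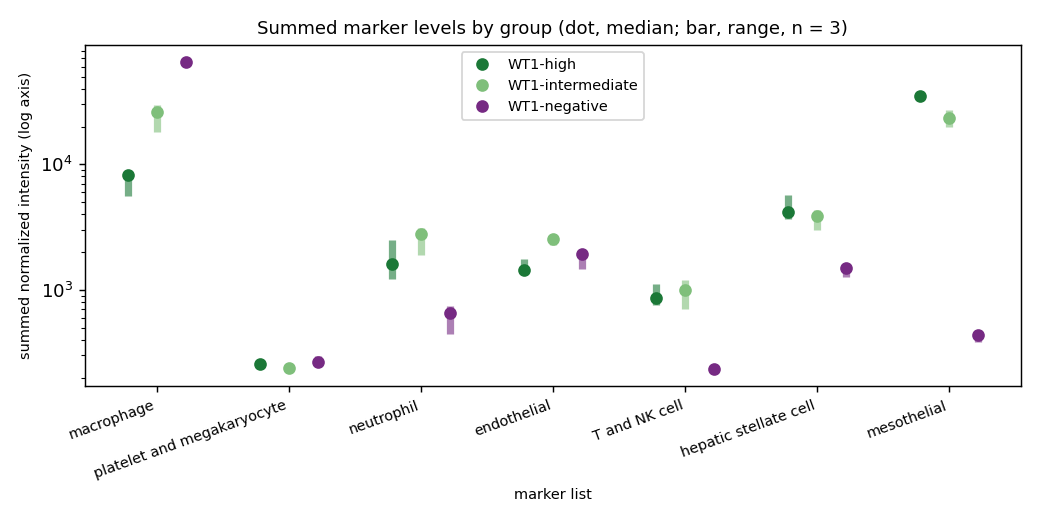
Summed normalized intensity of 7 marker lists by WT1 group on a log axis, with dots for the median and bars for the range of 3 arrays. The macrophage sum, though not every macrophage marker, rises from WT1-high through WT1-intermediate to WT1-negative aHSCs. The platelet list is near background in all groups, and the mesothelial and T and NK cell lists are lowest in culture.

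The genes with the most similar profiles over the 9 arrays are named as a description, by Pearson's r of log2 levels, with arrays of 3 groups behind each value. For Cxcl4 they were Rgs1 (0.989), Gpnmb (0.979) and Havcr2 (0.976). Those of Cxcl1 were 2810423A18Rik, Bmper and Gsta3 (0.986 to 0.992), those of Cxcl2 Dmxl2, Cpeb2 and AW120700 (0.984 to 0.987), and those of Cxcl9 E430002G05Rik, Fmo1 and Sardh (0.978 to 0.984). Cxcl10 was closest to H2-M2 (0.994), a probe named scl0002507.1_236 (0.994) and Tagap (0.993), and Cxcl16 to Tmem39a (0.994), 5830435K17Rik and Ubtd2 (0.982). For Cxcl13 they were LOC100044411 (0.995), 2310075M15Rik and Glrx2 (both 0.994). Cxcl12 and Cxcl14 had less similar partners, namely G630007B09Rik (0.969), Samd8 and Gpr176 (0.96) for Cxcl12 and LOC100045940 (0.944), Smchd1 and Tle4 (0.923) for Cxcl14.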

How the data were processed

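Per the labels and the methods, the authors exported unnormalized summary probe profiles from BeadStudio, and the deposited values are an intensity per probe on a linear scale with a detection p-value beside it. Another deposited table repeated these intensities (largest difference 0) and was not used further, nor were 75 per-array columns of bead spread, array numbers and repeated detection p. The label of 1 WT1-intermediate array gave replicate 30 where its column was numbered 29, and it was the only array left for that label. Its detection p was computed from its own negative controls, a calculation that on the other 8 arrays differed from the deposited p in 0 calls at 0.05, and bead numbers cover those 8 arrays. The deposited intensities were normalized with limma 3.58.1 (R 4.3.3) by neqc, that is background correction from 936 negative controls, quantile normalization, an offset of 16 and log2, after the authors' outline. The 20573 of 45281 probes detected (p under 0.05) on 3 or more arrays entered a linear model with 3 groups (6 residual and 5.19 prior degrees of freedom), two-sided, with Benjamini-Hochberg adjustment over all probes. Precision is limited by 3 arrays per group.

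The members and all lists were chosen with earlier results of these data known. Named were all members, the receptors and other CXC ligands, up to 4 genes with the largest difference among those passing in each list and comparison, markers of the lists reported, and the 3 symbols closest to each member by correlation. Additional genes named by their part in a count or a second probe were chosen after their values were seen. Of 203 list entries, 194 matched by symbol, 2 by synonym and 7 not at all. The study states that the liver arrays came from 3 animals. Deviations from the group mean, correlated across probes, gave 0.35 for the arrays numbered 1, 0.34 for those numbered 8 and 0.47 for 29 with 30, and -0.39 to 0.03 for other combinations, so the replicate number was used as a block in alternative fits. The other alternatives were background correction, scaling, offset, detection filter, samples fitted, array weights, probe and each array left out. The steps were tested on simulated data. Promoters are from RefSeq (GRCm38.p6). The build behind the probe annotation is not given in the sources used here.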

Additional observations from a re-analysis of the deposited data

How the results depend on the processing

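The number of arrays limits these values. So does signal near background, for Cxcl9, Cxcl10 and Cxcl13 in culture and for Cxcl4 and Cxcl14 in WT1-high aHSCs. Differences of single CXC chemokines moved by less than the spread between replicates in 527 cases and by more in 23. The 527 include settings that cannot move a difference by construction, so this count is no measure of stability. Those settings are a changed detection filter, fitting only the groups compared and leaving out an array of the group not compared. Of the differences that passed the test, the sign changed for Cxcl2 alone, when its dimmer probe was read (-0.95 for WT1-high and -0.04 for WT1-intermediate aHSCs against culture). Differences that did not pass crossed 0 for Cxcl1 (-0.39 to 0.20), Cxcl10 (-0.23 to 0.16), Cxcl12 (-0.24 to 0.88) and Cxcl13 (-0.11 to 0.99) between the liver populations, and for Cxcl14 between WT1-intermediate aHSCs and culture (-0.08 to 0.57). Between the liver populations, the 2 CXC chemokine genes passing became 1, Cxcl4, without background correction, with an offset of 50, without the detection filter and with only the groups compared, and lay between 1 and 3 with each array left out (1 when the array left out was replicate 1 or 8 of WT1-high, 1 or 30 of WT1-intermediate or 14 of WT1-negative aHSCs). Of the receptors and pathway genes, 11 passed there, 7 without background correction, 4 without the filter, 19 with a random replicate block, 17 with a fixed block by column number, 15 with a fixed block by label number and 7 to 15 with each array left out (7 without WT1-high replicate 29). Over all probes, 730 became 1208 with median scaling (1073 of them lower, against 544), 335 without the filter, 339 with only the groups compared, 1752 (1032 lower) with the random replicate block, 1656 (1053 lower) with the block by column number, 817 with that by label number, and 335 to 867 with each array left out (of the WT1-high arrays, leaving out replicate 8 gave 335 and replicate 29 gave 368; of the others, WT1-intermediate replicate 1 gave 340 and WT1-negative replicate 14 gave 456). Requiring detection on all 9 arrays left 7970 of 12258 probes passing between WT1-high and WT1-negative aHSCs and 7716 of 11935 between WT1-intermediate and WT1-negative aHSCs, with 12749 probes tested. Under the settings other than that one, 8 or 9 of the 9 CXC chemokine genes passed between WT1-high and WT1-negative aHSCs, Cxcl12 being lost in 3 (no filter, and without WT1-high replicate 1 or WT1-negative replicate 14), and 6 to 8 passed between WT1-intermediate and WT1-negative aHSCs, Cxcl4 passing in 8 of 20 settings. With detection on all 9 arrays, 7 of the 9 genes were tested. The median of all probes moved to -0.18 between the liver populations, and to 0.27 between WT1-intermediate and WT1-negative aHSCs, with median scaling. Beyond construction (fewer probes or arrays), the cause was not tested.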
